A study of Homo sapiens with 14 samples.

Results

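The comparison described here is that of LNCaP cells depleted of CTCF for 144 h with cells given a control siRNA for the same time. It rests on 4 of the 14 arrays of the series, chosen by their labels alone: CTCF siRNA 144 h replicates 1 and 2, against Control siRNA 144 h replicates 1 and 2. LNCaP is an established line of human prostate cancer cells that respond to androgen, so each group is a culture of a single line and no animal or donor differs between the groups. Both groups were given pooled siRNAs (short double-stranded RNAs that silence a matching transcript) at 20 nM, directed at CTCF in one group and non-targeting in the other. They were split after 72 h, and were transfected a second time for another 72 h, so that control cells carried the same transfections and the same passage as depleted cells. The study treats its replicates as biologically independent. The other arrays are CTCF and control siRNA at 24 and 72 h and cells without transfection, 2 arrays each. Labelled total RNA was read on Affymetrix Human Gene 2.0 ST arrays, and each value below is a robust multi-array average (RMA) on the log2 scale, so that a difference of 1 is a doubling. Differences are CTCF siRNA minus control siRNA, errors are standard errors (SE) of a moderated linear fit in limma with 2 arrays per group, and a gene is said to have changed where its limma adjusted p was under 0.05.

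CTCF is a DNA-binding protein with a row of zinc fingers. It stops cohesin, the ring-shaped complex that extrudes chromatin loops, and so anchors loops and the borders of contact domains, and it also binds next to many promoters. Bound CTCF can also keep active and repressive chromatin apart, and the study asked whether its loss alters transcription in prostate cancer cells. An siRNA guides the cleavage of the messenger RNA that it matches. The match of the CTCF pool to CTCF or to any other transcript was not tested. The part of other targets in the differences below was not tested either. The second of the 4 RNAs of the pool is listed with 18 bases where the others have 19. These RNAs, directed at the CTCF transcript (chromosome 16), are given in the labels as follows.
CTCF siRNA 1: gaugaagacugaaguaaug
CTCF siRNA 2: ggagaaagaagaagagua
CTCF siRNA 3: gaagaugccugccacuuac
CTCF siRNA 4: gaacagcccauaaacauag

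The targeted transcript was low in both depleted arrays. CTCF had log2 values of 6.84 and 6.94 after CTCF siRNA, against 9.19 and 9.07 after control siRNA, and 8.85 and 8.78 in untransfected cells. The difference of −2.24 ± 0.18 is 4.72-fold lower in CTCF siRNA (limma adjusted p = 0.000137). The target thus bears out the siRNA named in the labels of these 4 arrays, but not their time or replicate number.

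Across the transcriptome, 606 of 16098 probe sets that name 1 gene changed at 144 h (3.76%). More were higher after CTCF siRNA (381, or 2.37%) than lower (225, or 1.4%). Changes were mostly moderate: 180 of the 606 reached 2-fold, and 133 were under 1.5-fold. The median difference over all probe sets was 0.00, but quantile normalisation brings the arrays to a common distribution. That median therefore cannot show whether the groups as a whole were shifted against each other. All 606 had groups that did not overlap, which was also true of 47.0% of all probe sets. At an unadjusted p under 0.05 there were 2633 probe sets. Any 1 of the 4 arrays of 144 h left out lowered the count to between 210 and 245, with 141 of the 606 past the threshold in all 4 such fits, and the direction of the 606 was the same in each of them. Genes named below as robust to leaving out arrays are among those 141.

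**Figure D1:**
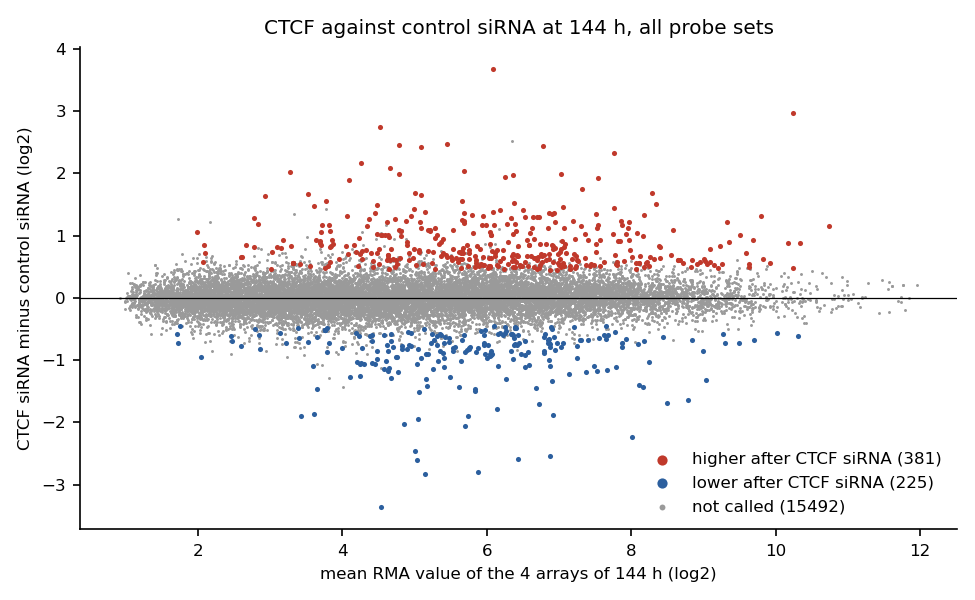
Difference between CTCF and control siRNA at 144 h (vertical axis, log2) against the mean RMA log2 value of the 4 arrays (horizontal axis), 1 point per probe set. The 381 probe sets that rose and the 225 that fell after CTCF siRNA lie on both sides of 0 at middle and high values, and few lie at the low end.

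A part of the largest single changes is given here, picked with their values known. RPL26L1-AS1, a non-coding RNA, had values of 7.87 and 7.98 after CTCF siRNA, against 4.37 and 4.13 after control siRNA, and MAP1B, which stabilises the microtubules of neurons, had 11.71 and 11.73, against 8.82 and 8.69. A second probe set of RPL26L1-AS1 rose by less (0.78 ± 0.19). LINC00622, an intergenic RNA, had 5.80 and 5.98 after CTCF siRNA, against 3.22 and 3.06 after control siRNA (2.75 ± 0.17, limma adjusted p = 5.06e-05). Untransfected cells had 2.71 and 3.37, so that depleted cells alone stood high. SEC11C, the catalytic subunit of a signal peptidase, which trims proteins on entry to the secretory pathway, had 8.75 and 9.09 after CTCF siRNA, against 6.71 and 6.49 after control siRNA. Its values in untransfected cells, 8.07 and 8.15, lay between the groups and nearer to CTCF siRNA. ATXN1, which encodes the transcriptional co-regulator ataxin-1, had 6.89 and 6.53, against 4.77 and 4.57, and 5.54 and 6.08 in untransfected cells, with differences of 0.08 at 24 h and 0.06 at 72 h before the 2.04 of 144 h.

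ZBTB39, a BTB zinc-finger gene, fell furthest, with 3.07 and 2.63 after CTCF siRNA, against 6.12 and 6.31 after control siRNA. PPA2, a mitochondrial pyrophosphatase, had 3.65 and 3.81, against 6.53 and 6.58, and BOLA3, an iron-sulfur cluster factor, had 5.55 and 5.67, against 8.13 and 8.17. For each of these 3 genes both untransfected arrays lay nearer to control siRNA than to CTCF siRNA. F2R, the thrombin receptor of many cell types, had 4.70 and 4.88 after CTCF siRNA, against 6.67 and 6.70 after control siRNA, and fell by 1.90 on the log2 scale (limma adjusted p = 0.000137). ENC1, an actin-binding substrate adaptor of a cullin ligase, had 5.73 and 6.23, against 7.73 and 7.98 (−1.88 ± 0.20), and differed by only −0.32 at 72 h. These 10 genes passed the threshold in each of the 4 fits with an array left out.

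By level, the calls lay mostly among well-measured genes. With probe sets divided into 4 equal classes by mean value, 0.696% changed in the lowest class and 2.88, 5.62 and 5.86% in the classes above it. By gene type, 4.29% of 11916 protein-coding genes, 2.22% of 1398 long non-coding RNAs and 2.05% of 1072 microRNA genes changed. Of 6 measured markers of luminal prostate cells, KLK3, KLK2, KRT8 and KRT18 did not pass the test, HOXB13 missed the threshold (−0.64 ± 0.16, limma adjusted p = 0.0610) and FOLH1 fell, with a list mean of 7.98 to 8.12 in CTCF siRNA arrays and 8.19 to 8.24 in control siRNA arrays. None of 6 basal markers changed (list mean 3.47 to 3.56 after CTCF siRNA and 3.60 to 3.62 after control siRNA), none of 9 fibroblast and stromal markers (4.06 to 4.07 after CTCF siRNA and 4.03 to 4.10 after control siRNA), 1 of 17 neuroendocrine markers (MAP1B, while CHGA, SYP and INSM1 did not pass) and 1 of 11 immune markers (CD68). The part of these shifts in the results below was not tested, and in RNA from whole cultures fewer cells of a kind and less RNA per cell cannot be told apart.

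To look past single genes, 73 lists of pathways and 64 families of related symbols were examined, with 1 probe set for each of 14884 genes. Of these genes 578 changed (3.88%), 361 higher (2.43%) and 217 lower (1.46%), and the counts below are to be read against these shares. Lists stood on both sides of them. In 16 of 72 measured lists and 13 of 54 measured families no member changed. The highest shares among lists of 20 or more genes were in those of steroid-responsive genes and glutathione transferases. The lists were chosen with earlier results of these data known, so this ranking is a description and not a test.

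**Figure D2:**
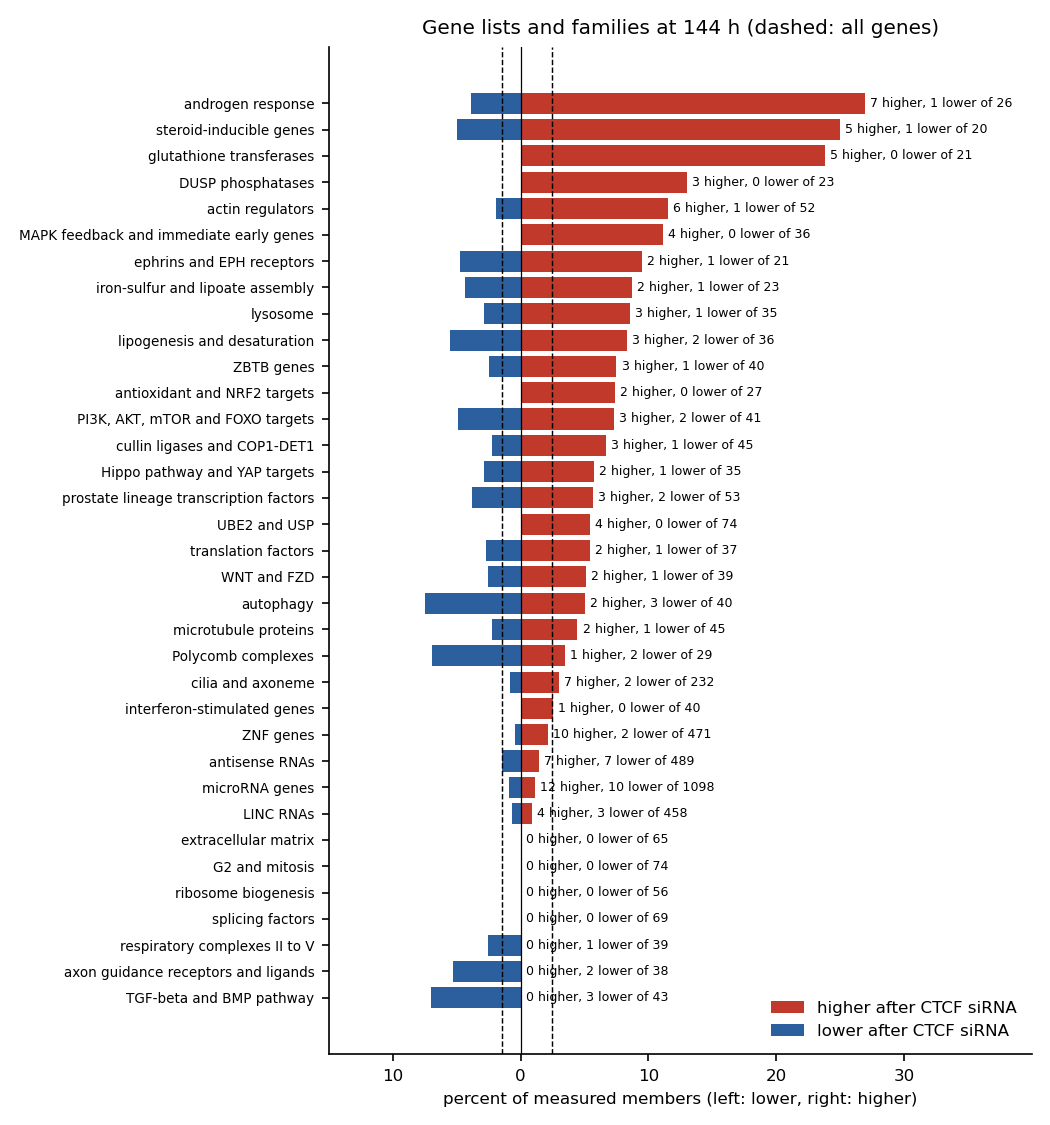
Share of the measured members of selected gene lists and families that were higher (right bar) or lower (left bar) after CTCF siRNA than after control siRNA at 144 h, in percent, with the numbers of members beside the bars. The dashed lines give the shares over all 14884 genes, 2.43% higher and 1.46% lower. Androgen-response, steroid-inducible and glutathione transferase genes reach furthest to the right, and splicing, ribosome biogenesis and mitotic genes have no bar.

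Steroid-responsive genes held the highest share of increases among lists with 20 or more measured genes, lists that were chosen with earlier results known. Steroid hormones act through ligand-activated transcription factors, and prostate cells respond to androgen with secretory proteins and a set of regulators. Of 26 measured androgen-response genes 7 were higher and 1 lower after CTCF siRNA, 21 had a positive difference, and the median was 0.27. Of 20 measured genes that steroid receptors induce in many tissues 5 were higher and 1 lower, with a median of 0.22. The lists share 5 genes, and the 41 genes together held 9 increases and 2 decreases. With any 1 of the 4 arrays left out, 3 to 4 of the androgen-response and 4 of the other genes passed the threshold.

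ZBTB16, a zinc-finger repressor with a BTB domain that steroid hormones induce, had values of 6.37 and 6.68 after CTCF siRNA, against 5.19 and 5.51 after control siRNA, and 5.49 and 5.17 in untransfected cells. It rose by 1.18 ± 0.15 (limma adjusted p = 0.00231). SGK1, a kinase that steroids induce and that promotes sodium uptake, had 5.32 and 5.36 after CTCF siRNA, against 3.04 and 3.30 after control siRNA and 2.97 and 2.94 in untransfected cells, and rose by 2.17 ± 0.15, the largest difference of the 41 genes. FKBP5, a co-chaperone that holds steroid receptors in check, had 5.83 and 6.06 after CTCF siRNA, against 5.24 and 5.42 after control siRNA. Both groups lay above the untransfected arrays (4.82 and 4.86), and the difference of 0.62 ± 0.13 passed the test (limma adjusted p = 0.0283). HERC3, a ubiquitin ligase, rose by 0.84 ± 0.16, although untransfected cells had values (8.55 and 8.66) near those after CTCF siRNA (8.71 and 8.90) and above those after control siRNA (7.93 and 8.0).

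Outside the androgen list, ERRFI1, which inhibits the epidermal growth factor receptor, had values of 7.98 and 8.21 after CTCF siRNA, against 6.89 and 7.05 after control siRNA, a rise of 1.12 ± 0.15 (limma adjusted p = 0.00241). MAOA, the mitochondrial enzyme that oxidises monoamines, rose by 0.88 ± 0.12, with 10.76 and 10.80 after CTCF siRNA, against 9.89 and 9.90 after control siRNA. MERTK, a receptor tyrosine kinase, fell by 0.89 on the log2 scale. Kallikreins, the secreted proteases by which androgen action is usually followed, did not pass the test. KLK3, which encodes prostate-specific antigen, differed by −0.14 ± 0.18, KLK2 by 0.18 ± 0.16 and KLK4 by 0.32 ± 0.12. STEAP1, a metalloreductase of the prostate epithelium, fell, with 7.70 and 7.75 after CTCF siRNA, against 8.30 and 8.64 after control siRNA (−0.74 ± 0.18, limma adjusted p = 0.0475).

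**Figure D3:**
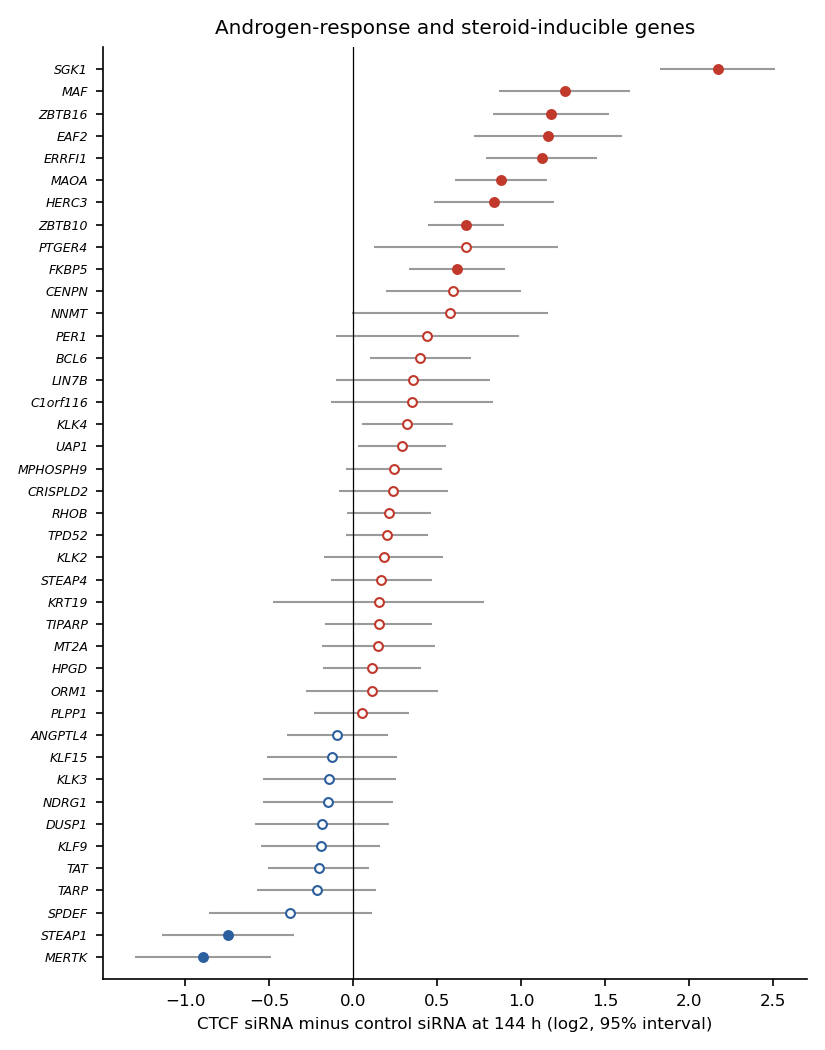
Difference between CTCF and control siRNA at 144 h (log2) for each of the 41 measured androgen-response and steroid-inducible genes, with 95% confidence intervals of the limma fit, ordered by difference. Filled points passed the adjusted threshold: 9 to the right of 0 and 2 to the left.

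Glutathione transferases that changed were all higher after CTCF siRNA. These enzymes join glutathione to reactive and foreign compounds. Of 21 measured members of the family 5 were higher and none lower after CTCF siRNA, the median was 0.17, and 13 were positive. GSTT2 had 6.57 and 6.15 after CTCF siRNA, against 5.27 and 4.73 after control siRNA, and rose by 1.36 ± 0.18 (limma adjusted p = 0.00271). GSTT2B rose by 0.85 ± 0.13, but its sequence is nearly identical to that of GSTT2, so their probe sets may read the same transcripts. GSTM3 rose by 0.58 ± 0.11, with 6.84 and 6.81 after CTCF siRNA, against 6.27 and 6.22 after control siRNA. GSTA4, which clears the lipid peroxidation product hydroxynonenal, rose by 0.58 ± 0.13 and GSTT1 by 0.57 ± 0.13. With 1 array left out 1 to 2 of the 5 passed, GSTT2 in every fit.

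Other antioxidant genes gave fewer calls. Of 27 measured targets of the oxidative stress factor NRF2 and related genes, 20 had a positive difference, with a median of 0.19, and 2 changed. CAT, the catalase that breaks down hydrogen peroxide in peroxisomes, had 9.97 and 10.05 after CTCF siRNA, against 9.02 and 8.99 after control siRNA, and rose by 1.01 ± 0.12 (limma adjusted p = 0.00120), robustly to leaving out arrays. SRXN1, which restores oxidised peroxiredoxins, rose by 0.71 ± 0.11, with 7.67 and 7.45 after CTCF siRNA, against 6.89 and 6.81 after control siRNA. Leaving out 1 array kept 1 to 2 of these 2.

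Of 52 measured actin regulators 6 were higher and 1, SVIL, lower after CTCF siRNA, and the median was 0.08. Tropomyosins wind along actin filaments and protect them: TPM1 had 6.28 and 6.28 after CTCF siRNA, against 5.28 and 5.61 after control siRNA (0.83 ± 0.14), and TPM4 had 7.18 and 7.03, against 6.51 and 6.30 (0.70 ± 0.12). A second probe set of TPM1 gave 0.85. TMOD2, which caps the slow end of filaments, rose by 0.79 ± 0.14, and PFN2, which feeds actin monomers to growing filaments, by 0.84 ± 0.16. The formin FHOD1 (0.71 ± 0.17) and EZR, which links filaments to the cell membrane (0.50 ± 0.11), completed the increases. SVIL, which encodes supervillin, a membrane-associated actin-bundling protein, fell by 1.19 on the log2 scale, with 4.14 and 4.20 after CTCF siRNA, against 5.39 and 5.33 after control siRNA and 6.36 and 6.17 in untransfected cells. Of the 7 genes, 1 to 4 passed with 1 array left out, SVIL in every fit.

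The exchange factors DOCK4 and DOCK11, which act upstream of actin assembly, also rose. They, SHROOM3 and AFAP1L1 were named after their values were seen, with no count of related genes. DOCK4 had 7.08 and 7.31 after CTCF siRNA, against 6.01 and 6.13 after control siRNA (1.12 ± 0.17). DOCK11 rose by 1.18 ± 0.16 at low values (3.38 and 3.46 after CTCF siRNA, against 2.22 and 2.25 after control siRNA). SHROOM3, which draws the cell apex together through actin and myosin, rose by 1.29 ± 0.14, and AFAP1L1, an adaptor on actin filaments, by 1.02 ± 0.11. DOCK11, SHROOM3 and AFAP1L1 were robust to leaving out arrays.

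Of 45 measured microtubule proteins 2 were higher and 1 lower after CTCF siRNA, of which 2 passed with 1 array left out. Beside MAP1B (2.97 ± 0.14), MAP9, a spindle and cilium protein, had 8.60 and 9.07, against 7.41 and 7.62 after control siRNA (1.32 ± 0.16). VASH2, a tubulin carboxypeptidase, fell by 0.72 on the log2 scale. Axon guidance genes held 2 decreases and no increase among 38, and 1 to 2 passed with 1 array left out. SLIT1, a secreted ligand of the Robo receptors, had 5.25 and 4.96 after CTCF siRNA, against 6.60 and 6.52 after control siRNA and 6.5 and 6.54 in untransfected cells, and fell by 1.46 on the log2 scale (limma adjusted p = 0.000349). NCAM2, a neural adhesion molecule, had 9.24 and 9.02, against 9.92 and 9.79 (−0.72 ± 0.13). In the list of tight junctions and desmosomes 2 of 38 measured genes were higher and none lower (5.26%, beside 3.88% of all genes). OCLN, the tight junction protein occludin, rose by 0.50 ± 0.11 and the polarity protein PARD6A by 1.02 ± 0.18. None of 24 claudins changed. OCLN lost the threshold with any array left out.

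ELOVL enzymes add carbon units to fatty acyl chains, each with its own substrates. Of 36 measured genes of lipid synthesis and desaturation 3 were higher and 2 lower, and all but DGAT1 work on chain length or double bonds. ELOVL5, which elongates polyunsaturated acids and is known as an androgen-induced gene in prostate cells, had 9.65 and 9.97 after CTCF siRNA, against 8.82 and 9.0 after control siRNA (0.89 ± 0.13, limma adjusted p = 0.00517). ELOVL4, which makes very long chains, rose by 0.60 ± 0.12. ELOVL6, which elongates saturated palmitate, had 6.76 and 6.62, against 7.45 and 7.38, and fell by 0.73 on the log2 scale (limma adjusted p = 0.00547), while untransfected cells had 6.76 and 6.82. FADS1, a desaturase of polyunsaturated acids, fell by 0.58, and DGAT1, which completes triglycerides, rose by 0.53 ± 0.11. Of these 5 genes, 0 to 2 passed with 1 array left out.

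CERS6, a ceramide synthase that uses palmitoyl chains, named here after its values were seen, had 11.28 and 11.36 after CTCF siRNA, against 10.15 and 10.17 after control siRNA, and rose by 1.16 ± 0.12 (limma adjusted p = 0.000777), with 1.42 at a second probe set.

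Mitochondrial assembly and breakdown genes changed singly rather than as a body. Among 23 measured genes of iron-sulfur cluster and lipoate assembly, NFU1, a late-acting cluster carrier (0.51 ± 0.12), and the ferredoxin FDX1 (0.52 ± 0.11) rose, and BOLA3, which works beside NFU1, fell by 2.54 on the log2 scale and was the 1 of the 3 that passed with an array left out. In the list headed respiratory complexes II to V, 30 of 39 measured genes had a positive difference, at a median of 0.17. The 1 that changed was PPA2, which fell by 2.83 and is the pyrophosphatase named above rather than a part of a complex. The pyruvate carrier subunit MPC2 rose by 0.56 ± 0.12 and ETFDH, which passes electrons from fatty acid oxidation to ubiquinone, by 0.62 ± 0.11. Both calls were lost with any array left out.

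Some other metabolic genes are given singly, since they were picked after their values were seen and belong to no list with a count. DBT, a core subunit of the branched-chain ketoacid dehydrogenase, had 9.93 and 9.98 after CTCF siRNA, against 9.12 and 9.35 after control siRNA (0.72 ± 0.13). CROT, a peroxisomal carnitine acyltransferase for medium chains, had 7.75 and 8.0, against 6.74 and 6.94 after control siRNA (1.03 ± 0.16). Neither passed in all 4 fits with an array left out. ACSM1 and ACSM3, mitochondrial acyl-CoA ligases that neighbour each other on chromosome 16, rose by 1.06 ± 0.16 and 0.57 ± 0.11, and the call of ACSM3 was lost with any array left out.

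Of 56 measured receptor tyrosine kinases and growth factor ligands, a list that does not hold IGF1R, none was higher and 1, MERTK, was lower (1.79%). The list of PI3K, AKT, mTOR and FOXO genes, which transmit growth factor signals, held more calls. IGF1R, the receptor of insulin-like growth factors, had 7.03 and 7.24 after CTCF siRNA, against 5.60 and 5.63 after control siRNA and 5.70 and 5.54 in untransfected cells, and rose by 1.52 ± 0.16 (limma adjusted p = 0.000818). SGK2, a kinase related to AKT, had 6.01 and 5.37, against 4.49 and 4.44 (1.22 ± 0.19). KLHL24, a substrate adaptor of a cullin ligase, fell by 0.73 on the log2 scale. In all, 3 of 41 measured genes of that list were higher and 2 lower, and 3 to 5 of these 5 passed with 1 array left out.

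Of 36 measured genes of MAP kinase feedback and the immediate early response 4 were higher and none lower after CTCF siRNA, at a median of 0.04. DUSP10, a phosphatase of JNK and p38, had 7.26 and 7.41 after CTCF siRNA, against 6.53 and 6.47 after control siRNA (0.83 ± 0.11, limma adjusted p = 0.00207), and untransfected cells had 7.03 and 6.71. DUSP8 (0.60 ± 0.14) and DUSP16 (0.51 ± 0.12) also rose, so that 3 of 23 measured dual-specificity phosphatases were higher. TRIB1, a pseudokinase that brings substrates to the COP1 ubiquitin ligase, had 7.03 and 7.01, against 6.11 and 6.06 (0.93 ± 0.15). With 1 array left out, 1 of the 4 passed in each fit, DUSP10.

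WNT ligands bind Frizzled (FZD) receptors, and the pathway ends at LEF and TCF factors. FZD1 had 6.90 and 7.05 after CTCF siRNA, against 5.68 and 5.69 after control siRNA, and rose by 1.29 ± 0.15 (limma adjusted p = 0.00104). FZD5 rose by 0.95 ± 0.17 and the kinase GSK3B, which marks beta-catenin for destruction, by 0.55 ± 0.12, the latter a call lost with any array left out. LEF1 had 4.26 and 4.31 after CTCF siRNA, against 5.23 and 5.26 after control siRNA, and fell by 0.96 on the log2 scale (limma adjusted p = 0.00414). Untransfected cells (4.48 and 4.56) lay nearer to CTCF siRNA than to control siRNA. In the family of 39 measured WNT and FZD genes, which includes LEF1, 2 were higher and 1 lower, and 1 to 3 passed with 1 array left out.

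The list of transforming growth factor beta and bone morphogenetic protein (BMP) signalling held only decreases, 3 of 43, at a median of 0.01. BAMBI, a decoy receptor without a kinase, had 6.79 and 6.78 after CTCF siRNA, against 7.95 and 8.0 after control siRNA, and fell by 1.19 on the log2 scale (limma adjusted p = 0.000919). The protease BMP1 fell by 0.58 and the ligand GDF11 by 0.63. BAMBI alone passed in all 4 fits with an array left out. Of 35 Hippo pathway and YAP target genes, AMOT (0.71 ± 0.13) and CRIM1 (0.76 ± 0.15) rose and the transcription factor TEAD2 fell by 0.87, and 0 to 2 of these 3 passed with 1 array left out.

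Among 21 ephrins and their receptors, which signal between touching cells, ligands of the A class rose and a ligand of the B class fell. EFNA3 had 7.39 and 7.28 after CTCF siRNA, against 6.57 and 6.40 after control siRNA (0.85 ± 0.13), and EFNA5 had 9.01 and 8.95, against 8.40 and 8.34 (0.61 ± 0.11). EFNB2 had 4.33 and 3.65, against 5.23 and 4.71 (−0.98 ± 0.15), and no measured EPH receptor changed. Leaving out any 1 array kept 1 of the 3.

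**Figure D4:**
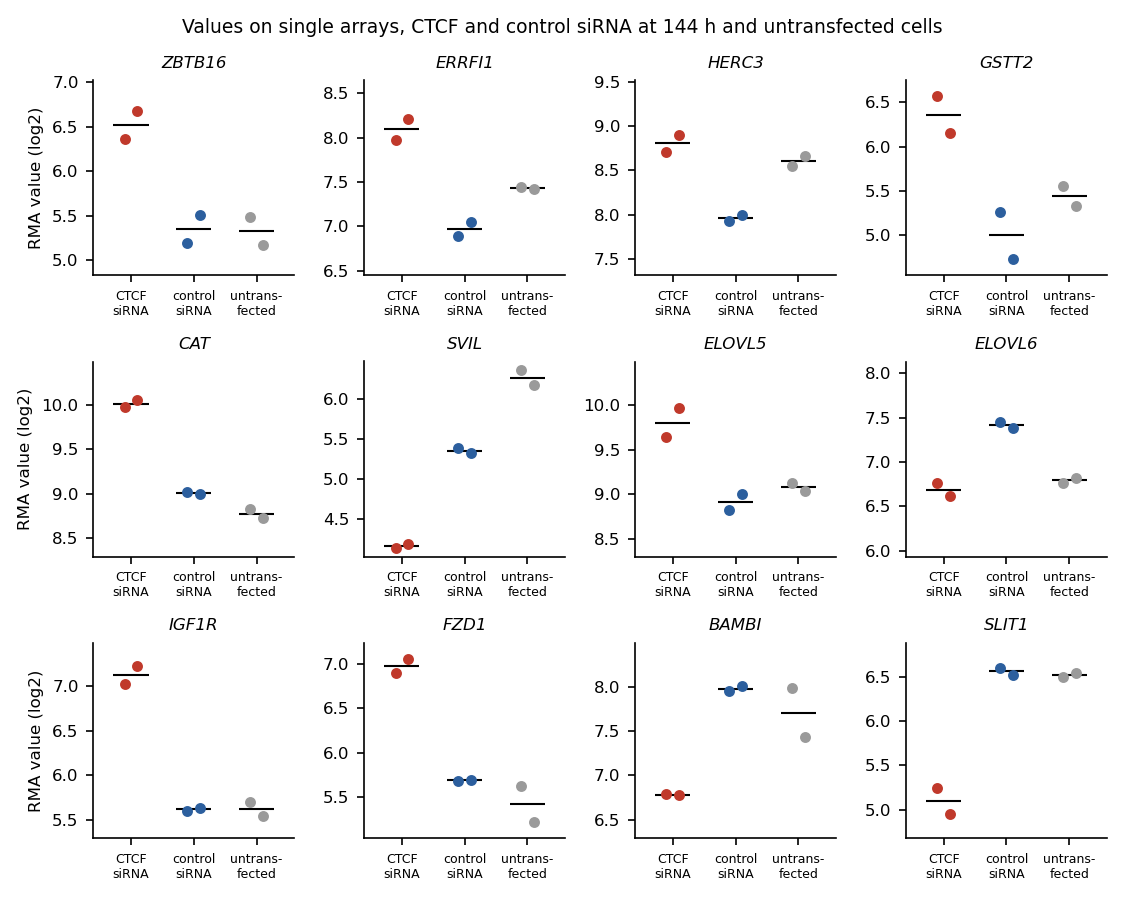
RMA log2 values of 12 genes on single arrays: CTCF siRNA 144 h (left), Control siRNA 144 h (middle) and untransfected cells (right), 2 arrays each, with bars at the group means. In every panel the CTCF and control siRNA arrays do not overlap, as in all 606 changed probe sets and 47.0% of all probe sets. Untransfected arrays of ELOVL6 and HERC3 lie beside those of CTCF siRNA.

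Transcription and chromatin regulators changed as single genes. Polycomb group proteins keep genes silent through histone marks. Of 29 measured members PCGF5, a subunit of a variant complex 1, had 8.0 and 7.73 after CTCF siRNA, against 6.98 and 6.88 after control siRNA, and rose by 0.93 ± 0.12 (limma adjusted p = 0.00186). SCML2 had 6.0 and 5.82, against 6.72 and 6.80 (−0.85 ± 0.12), and its relative SCML1, also on the X chromosome, fell by 0.74. For SCML2 the untransfected values of 5.91 and 6.02 lay with those of CTCF siRNA, and its difference was already −0.89 at 24 h and −0.80 at 72 h. With 1 array left out 1 to 3 of the 3 passed. Of 63 histone methylation enzymes KDM7A rose (0.58 ± 0.11) and KDM3B fell by 0.55, a share of 3.17% beside 3.88% of all genes. The remodeller CHD9 rose by 0.55 ± 0.11, and none of 17 genes of DNA methylation changed. KDM7A, KDM3B and CHD9 each lost the threshold with any array left out.

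Of 53 measured lineage transcription factors 3 were higher and 2 lower, and 4 of these 5 passed with any array left out. ELF5, an ETS factor of secretory epithelium, had 9.91 and 9.98 after CTCF siRNA, against 8.86 and 8.58 after control siRNA, and rose by 1.22 ± 0.14 (limma adjusted p = 0.000969). GRHL2, which maintains epithelial genes, rose by 0.61 ± 0.11. SOX4, a progenitor factor, had 7.88 and 8.05, against 9.73 and 9.49 (−1.65 ± 0.13), robustly to leaving out arrays. NFKB1, the p50 precursor of NF-kappaB, had 8.46 and 8.41, against 7.45 and 7.38 (1.03 ± 0.15), while no other of 24 measured genes of that pathway changed.

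In the large family of ZNF zinc-finger genes 10 were higher and 2 lower of 471 (2.55%, beside 3.88% of all genes), and 4 to 5 of these 12 passed with 1 array left out. ZNF385B rose by 1.44 ± 0.13 and ZNF706 by 1.32 ± 0.12. ZNF582 had 4.50 and 4.60 after CTCF siRNA, against 2.78 and 3.22 after control siRNA and 3.84 and 3.91 in untransfected cells. None of 26 ZSCAN and ZKSCAN genes changed. Of 40 measured ZBTB genes 3 were higher, among them ZBTB7C (0.74 ± 0.13), and 1 lower, with 2 to 3 left when 1 array was taken out.

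In the family of UBE2 genes, which carry ubiquitin, and USP genes, which remove it, USP25, USP28, USP38 and USP54 were higher and none was lower of 74 measured, a share of 5.41% beside 3.88% of all genes, and 54 had a positive difference (median 0.10). USP38 had 8.52 and 8.43 after CTCF siRNA, against 7.26 and 7.21 after control siRNA (1.24 ± 0.12, limma adjusted p = 0.000544), and USP25 had 9.16 and 9.10, against 8.02 and 8.05 (1.10 ± 0.12). USP54 rose by 0.62 ± 0.12 and USP28 by 0.48 ± 0.11, and both lost the threshold with any 1 array left out. In the list of cullin ligases, COP1 and DET1, 3 of 45 measured genes were higher and 1 lower (8.89%). CUL4B (0.82 ± 0.16), the signalosome subunit COPS8 (0.53 ± 0.11) and TRIB1 rose. DET1, a partner of COP1, fell by 2.07 on the log2 scale. TRIB1 is also counted with MAP kinase feedback above, and of these calls only that of DET1 was robust to leaving out arrays.

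Of 40 measured autophagy genes 2 were higher and 3 lower. CALCOCO2, which brings bacteria and damaged organelles to the autophagosome, had 6.63 and 6.74 after CTCF siRNA, against 6.03 and 6.0 after control siRNA (0.67 ± 0.12), and its relative TAX1BP1 rose by 0.47 ± 0.11. The mitophagy receptors BNIP3 and BNIP3L fell by 0.56 and 0.67, and TP53INP1, which binds autophagosome proteins, by 0.58. Leaving out 1 array kept 0 to 2 of the 5. Of 35 lysosomal genes 3 rose, CD68 by 1.17 ± 0.13, the ceramidase ASAH1 by 0.51 ± 0.10 and the channel MCOLN2 (0.52 ± 0.12), and the sulfatase ARSB fell by 0.58, and 1 of these 4, CD68, passed with any array left out.

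Translation factors changed in 3 of 37 genes. EEF1A2, the elongation factor form of muscle and neurons, had 7.73 and 7.73 after CTCF siRNA, against 8.85 and 8.68 after control siRNA, and fell by 1.03 on the log2 scale (limma adjusted p = 0.000696). EEF2K, the kinase that halts elongation, rose by 0.51 ± 0.12, and the cap-binding protein EIF4E3 by 0.79 ± 0.15, and 1 of the 3, EEF1A2, passed with any array left out.

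Several large processes held no change at this threshold. No gene changed among 69 splicing factors (median −0.07, 21 positive), 56 ribosome biogenesis genes (median −0.08, 18 positive), 74 genes of G2 and mitosis (median −0.08, 28 positive) or 52 cytosolic ribosomal proteins (median −0.04). The mitotic checkpoint kinase BUB1 differed by −0.50 ± 0.17 (limma adjusted p = 0.160) and the splicing factor SNRPD1 by −0.50 ± 0.18. Likewise none changed among 65 extracellular matrix genes, 36 of the nuclear lamina and pore, 43 interleukins and their receptors, and 18 each of the integrated stress and unfolded protein responses. The matrix protein THBS1 had 7.28 and 6.69 after CTCF siRNA, against 6.17 and 5.28 after control siRNA (1.26 ± 0.33, limma adjusted p = 0.0752). Its 95% confidence interval ran from 0.51 to 2.01, so a difference of that size can miss the threshold with 2 arrays per group. Of 40 interferon-stimulated genes 30 had a positive difference, at a median of 0.22, and 1 changed, the antiviral gene OASL (0.72 ± 0.13). Its call was lost with any array left out. Histone, integrin, laminin, serpin and cytochrome P450 genes were not analysed here.

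MicroRNA genes were a second layer of the data. MicroRNAs are cut from longer precursors and silence messenger RNAs that match their seed, bases 2 to 8 of the mature strand. The array reads the precursor or the host transcript around it, not the mature strand. Of 1072 genes that RefSeq classes as microRNAs (1098 by symbol alone, as in the plot of lists) 12 were higher and 10 lower after CTCF siRNA (2.05%), and 3 to 4 of these 22 passed with 1 array left out. Among those that fell, 4 belong to paralogous clusters on chromosomes 11 and 21 that each encode a let-7, a miR-99 or miR-100 and a miR-125b. Their mature strands are shown, because members of the let-7 and miR-125 families are studied in prostate cells, with the seed in capitals (RefSeq, GRCh38.p14), beside miR-222, whose gene rose.
let-7c-5p (chr21:16539838-16539859, plus strand): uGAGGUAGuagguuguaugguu
miR-99a-5p (chr21:16539101-16539122, plus strand): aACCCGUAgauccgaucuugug
let-7a-5p (chr11:122146568-122146589, minus strand): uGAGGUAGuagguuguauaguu
miR-125b-5p (chr11:122099809-122099830, minus strand): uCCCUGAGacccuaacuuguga
miR-222-3p (chrX:45747036-45747056, minus strand): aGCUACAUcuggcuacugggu

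The let-7 strands of both clusters share the seed GAGGUAG. On chromosome 21 MIRLET7C had 5.72 and 5.43 after CTCF siRNA, against 6.59 and 6.44 after control siRNA and 6.93 and 6.70 in untransfected cells, and fell by 0.94 on the log2 scale (limma adjusted p = 0.0458). MIR99A, upstream in the same cluster, had 5.97 and 6.13, against 6.45 and 6.81, and fell by 0.58 (limma adjusted p = 0.0150). The shared host transcript MIR99AHG differed by −0.29 ± 0.10 (limma adjusted p = 0.180) and MIR125B2 by −0.56 ± 0.28, neither past the threshold. On chromosome 11 MIRLET7A2 (1.25 and 1.47, against 2.11 and 2.05) and MIR125B1 (1.35 and 1.48, against 2.02 and 1.98) fell at values near the bottom of the array, and untransfected cells, with 1.62 and 1.29 and with 1.35 and 1.33, lay with CTCF siRNA. Their neighbour MIR100 and the host MIR100HG differed by 0.14 ± 0.14 and 0.18 ± 0.14. All 4 of these calls were lost with any 1 of the 144 h arrays left out. MIR222 had 5.21 and 5.04 after CTCF siRNA, against 4.37 and 4.58 after control siRNA, and rose by 0.65 ± 0.14, a call also lost with any array left out, with its partner MIR221 at 0.30 ± 0.12.

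**Figure D5:**
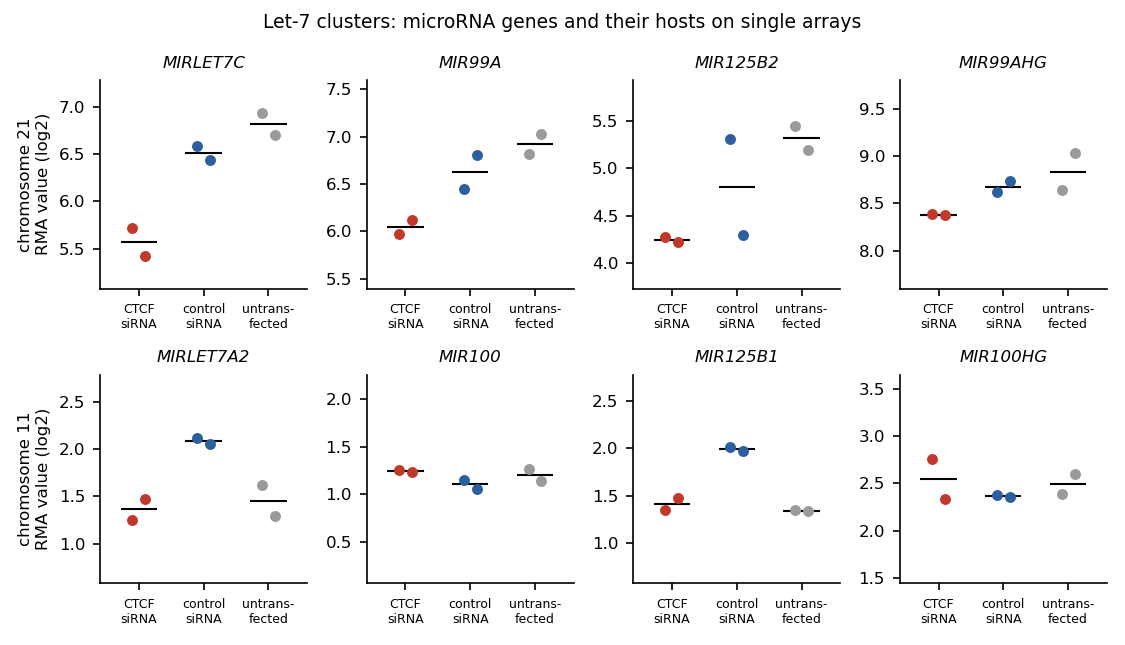
RMA log2 values of the microRNA genes and host transcripts of the let-7 clusters on chromosomes 21 (top) and 11 (bottom) on single arrays: CTCF siRNA 144 h (left), Control siRNA 144 h (middle) and untransfected (right), with bars at the means. MIRLET7C and MIR99A are below control siRNA in both depleted arrays, and the genes of chromosome 11 lie near the lowest values measured.

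Where a microRNA lies inside a gene, the array may read both as 1 transcript. Of the 22 called microRNA genes 16 lie in a host that was tested, 12 with the sign of their host, and the 5 whose host was called all had its direction. MIR4774 (2.45 ± 0.18) lies in CERS6, MIR4803 (1.36 ± 0.29) in MAP1B, MIR4450 (0.90 ± 0.18) in SHROOM3 and MIR554 (0.82 ± 0.16) in TUFT1, and MIR604 (−1.06 ± 0.17) fell with SVIL.

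Antisense and divergent RNAs start in or near a gene and are read from the other strand. Among 489 measured RNAs named as antisense 14 changed (2.86%), beside 3.88% of all genes. With divergent RNAs added 17 changed, of which 11 had a tested partner. Of these 11 partners 0 were called by limma and 4 had the sign of the RNA, with partner differences from −0.72 to 0.25. Beside a share of 3.88%, 11 partners are too few to show whether partners changed less often than other genes. PXN-AS1 had 7.43 and 7.28 after CTCF siRNA, against 5.32 and 5.43 after control siRNA (1.98 ± 0.17), whereas PXN, the focal adhesion protein paxillin, differed by −0.38 ± 0.12 (limma adjusted p = 0.119). RPL26L1-AS1 rose by 3.68 ± 0.20, against −0.27 ± 0.11 for RPL26L1. A second probe set of RPL26L1-AS1 gave a smaller rise, 0.78 ± 0.19 (limma adjusted p = 0.0496). BACE1-AS, antisense to the beta-secretase gene, fell by 0.83 on the log2 scale (limma adjusted p = 0.00297), with 6.60 and 6.46 after CTCF siRNA, against 7.40 and 7.33 after control siRNA. APP, the precursor that this secretase cuts, named here after its values were seen, had 8.19 and 8.56, against 9.72 and 9.66 (−1.32 ± 0.14). TMPO-AS1 fell by 0.90 beside a difference of −0.72 ± 0.21 for TMPO, the nearest to a shared change. Among 458 measured intergenic LINC RNAs 4 rose and 3 fell (1.53%), and 3 to 5 passed with 1 array left out.

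Some changed genes lay next to each other in the order of tested genes along the chromosome. Of 14859 adjacent pairs 47 had both genes called, 30 both higher, 8 both lower and 9 opposite. Of the 1155 neighbour places beside called genes 8.14% held another called gene, beside 3.88% of all genes. Of the 47 pairs 7 overlap in span, 5 of them a microRNA in its host, and near-identical copies such as NXF2 and NXF2B are also among them.

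Single stretches show both patterns. On chromosome 11 ABTB2 (8.55 and 8.35 after CTCF siRNA, against 7.49 and 7.08 after control siRNA), CAT and ELF5 follow each other, and all rose, by 1.16, 1.01 and 1.22. On chromosome 4 the divergent RNA PPP3CA-DT (0.54), the B-cell scaffold gene BANK1 (1.09 ± 0.13) and NFKB1 (1.03) rose in a row of tested genes. On chromosome 2 CCDC141 (1.67), SESTD1 (0.87) and ZNF385B did so. Genes that were not tested may lie between those given, and the calls of ABTB2 and PPP3CA-DT were not robust to leaving out arrays. On chromosome 12 METTL25 had 8.07 and 7.97 after CTCF siRNA, against 6.14 and 5.93 after control siRNA. Its neighbour TMTC2, a mannosyltransferase of the endoplasmic reticulum, had 7.95 and 8.04, against 5.61 and 5.51. A mixed run of 5 lay on chromosome 18, where RMC1 (0.51), TTC39C (1.19) and CABYR (0.97) rose and ANKRD29 (−0.68) and OSBPL1A (−0.46) fell, and with any array left out TTC39C and at most 1 other of the 5 stayed past the threshold. STEAP1 and CFAP69 on chromosome 7 fell together (−0.74 and −1.07), and SOX4 fell beside CDKAL1 (−0.66) on chromosome 6, but of these 4 genes only SOX4 passed in all 4 fits with an array left out.

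Leaving aside the Y chromosome, with 10 tested genes and no call, the share of genes that changed ran from 1.76% on chromosome 19 to 5.80% on the X chromosome, followed by 5.66% on chromosome 6 and 5.56% on chromosome 4. The median span of genes in the RefSeq annotation was 44.2 kb for genes that rose and 31.1 kb for genes that fell, against 20.3 kb for genes that did not change, and among protein-coding genes 52.7, 40.9 and 26.1 kb. These shares and spans are descriptions, and the part of the expression level in them was not tested.

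Promoter sequences were searched for the core of the CTCF motif, written as CCA, any 2 bases, AG, any 2 bases and GGC, on both strands, from 250 bases before to 50 after the start of each gene (RefSeq, GRCh38.p14). It was present in 2.49% of all 27305 promoters and in 2.72% of the 10749 tested. Promoters of genes that rose held it in 6 of 275 cases (2.18%) and those of genes that fell in 4 of 165 (2.42%), beside 2.74% of genes that did not change. The genes with a match were STAG1, CD68, FZD5, TOM1L2, GSTA4 and CHD9 among increases and STEAP1, PRAME, NECAP2 and ADORA2B among decreases. A match is a run of letters and not a bound site. The promoters of STAG1, a cohesin subunit that rose (1.46 ± 0.12) and the 1 called gene with 2 matches, and of STEAP1, which fell, are shown with the matches in capitals.
STAG1 (chr3:136752329-136752628, minus strand): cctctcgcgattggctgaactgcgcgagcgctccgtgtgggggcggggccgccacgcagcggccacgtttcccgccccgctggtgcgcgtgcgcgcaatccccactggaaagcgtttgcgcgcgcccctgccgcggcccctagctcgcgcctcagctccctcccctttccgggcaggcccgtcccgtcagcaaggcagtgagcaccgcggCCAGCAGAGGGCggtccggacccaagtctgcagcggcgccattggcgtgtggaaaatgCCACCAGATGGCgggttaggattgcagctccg
STEAP1 (chr7:90154219-90154518, plus strand): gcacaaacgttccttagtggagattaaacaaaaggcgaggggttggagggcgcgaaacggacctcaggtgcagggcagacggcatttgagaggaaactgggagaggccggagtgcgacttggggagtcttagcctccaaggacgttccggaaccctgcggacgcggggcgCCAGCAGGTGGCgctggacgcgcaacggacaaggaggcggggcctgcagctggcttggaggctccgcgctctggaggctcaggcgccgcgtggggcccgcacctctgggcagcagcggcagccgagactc

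At earlier times the same fit called 2 probe sets at 24 h (0.0124%) and 30 at 72 h (0.186%). The lists described above had these medians over time: androgen response 0.05 at 24 h, 0.11 at 72 h and 0.27 at 144 h, and glutathione transferases 0.07, 0.04 and 0.17. The unfolded protein response had a median of −0.34 at 72 h and −0.01 at 144 h. The effect of 144 h differed from that of 24 h for 128 probe sets (0.795%), of which 125 were called at 144 h, and from that of 72 h for 3 (0.0186%), all called at 144 h. SLIT1 differed by 0.00 at 24 h, −0.29 at 72 h and −1.46 at 144 h, and the effects of 144 and 24 h differed (limma adjusted p = 0.00893). FZD1 stood at 0.08, 0.56 and 1.29 (limma adjusted p = 0.0326 for 144 minus 24 h), and CAT at 0.08, 0.32 and 1.01 (limma adjusted p = 0.0377). ELF5 differed by −0.31 at 24 h and 0.03 at 72 h before its rise at 144 h (limma adjusted p = 0.00844).

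Control cells of 144 h had themselves been transfected a second time, and untransfected cells, whose labels give no time, show where they stood. For 109 of the 606 probe sets that changed (18%) the untransfected mean lay nearer to CTCF siRNA than to control siRNA, as it did for 42.8% of all probe sets. LEF1, ELOVL6, SCML2, HERC3 and the let-7 genes of chromosome 11, described above, are of this kind. KLHL1 is another, with 3.99 and 3.39 after CTCF siRNA, against 4.60 and 4.86 after control siRNA and 3.96 and 3.47 in untransfected cells, and so is NXF2, with 4.26 and 4.34, against 3.43 and 3.43, and 5.02 and 5.20 in untransfected cells.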

How the data were processed

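Total RNA of LNCaP cells was measured on 14 arrays in 7 groups of 2. Per the labels and the study's methods, the authors used R 3.2.5 to turn scanner files into RMA values (background correction, quantile normalisation, median polish), and the deposited values are on the log2 scale, 1 column per array. The genome build of the array is not given in the sources used here. Array medians were 3.67 to 3.72, and replicates of 144 h correlated at 0.9929 (CTCF siRNA) and 0.9934 (control siRNA). Of 53617 rows, 16098 name 1 gene through the platform annotation and were tested. The other 37519 rows are unnamed here.

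The fit was limma 3.58.1 in R 4.3.3 (lmFit, eBayes, two-sided, Benjamini-Hochberg over all 16098) over 12 arrays (all but the untransfected ones), with a mean for each of 6 groups and a block for replicate number, after the study's paired design, and a threshold of 0.05. Deviations of same-numbered arrays correlated at 0.154 at 144 h, 0.228 at 72 h and 0.0426 at 24 h. The script was tested on simulated data. For lists, a gene is the probe set with the highest mean. Precision is limited by 2 arrays per group (median SE 0.14). Genes could be named by rule, and the text gives part of them, chosen with their values known: CTCF, the 15 largest changes each way, up to 8 called members per list, up to 2 members with the widest difference in lists without a call, and called neighbours. The members and lists were chosen with earlier results of these data known. Alternatives were the fit without the block, other sets of arrays, a trended robust fit, all rows, dim probe sets left out, another quantile normalisation, 1 probe set a gene, and each array left out. Names and positions of genes, promoters and microRNAs are from RefSeq.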

Additional observations from a re-analysis of the deposited data

Results flagged for a closer look

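Genes named above are listed here where the effect of CTCF siRNA at 144 h differed from its effect at an earlier time by the test of that difference (limma adjusted p under 0.05). Values are the log2 effect at 144 h minus the log2 effect at 24 h. The effect was more positive at 144 h for RPL26L1-AS1 (3.27), MAP1B (2.65), LINC00622 (2.43), TMTC2 (2.29), SGK1 (2.10), SEC11C (2.09), ATXN1 (1.95), MIR4774 (1.77), ZNF385B (1.58), ELF5 (1.53), AFAP1L1 (1.49), METTL25 (1.46), IGF1R (1.38), DOCK11 (1.32), MAP9 (1.27) and ACSM1 (1.25). The same held for TTC39C (1.24), PXN-AS1 (1.23), FZD1 (1.21), CERS6 (1.18), ERRFI1 (1.14), SHROOM3 (1.10), ZNF582 (1.10), USP38 (1.10), BANK1 (1.05), ZBTB7C (0.99), MAOA (0.97), ZNF706 (0.97) and CAT (0.93). It was more negative at 144 h for PPA2 (−2.65), ZBTB39 (−2.61), BOLA3 (−2.49), ENC1 (−2.21), DET1 (−2.06), SOX4 (−1.62), F2R (−1.59), SLIT1 (−1.47), CFAP69 (−1.43), APP (−1.33), SVIL (−1.28), BAMBI (−1.21) and EFNB2 (−1.15). Against 72 h the effect differed for MAP1B, by 1.78, and ZNF582, by 1.42.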

How the results depend on the processing

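Of the counts of probe sets changed at 144 h, the main 606 became 210 to 245 with 1 array left out, where fewer arrays entered the fit. With all 53617 rows of the table tested, 265 of the 16098 named probe sets were called, and 611 rows in all. Other counts given for all rows are likewise of named probe sets alone. The count at 144 h stayed within 1.5 times of 606 in 7 other settings, from 531 with the 4 arrays alone to 861 with a trended robust fit. The genes called were less stable than their count. Of the 606, 427 were called with the 4 arrays alone, the fewest of these settings, and 582 with the trended robust fit, the most. Without the replicate block, which pairs same-numbered arrays, 648 were called, 572 of them among the 606. The effect at 144 h minus that at 24 h was called for 128 probe sets, for 153 with no replicate block, for 218 with a trended robust fit, for 14 with all rows and for 35 to 63 with 1 array left out. The effect at 144 h minus that at 72 h was called for 3 probe sets. That count was 14 with no replicate block, 13 with all 14 arrays, 54 with a trended robust fit, 0 with all rows, 26 without dim probe sets, 10 after another quantile normalisation, 16 with 1 probe set a gene and 0 with 1 array left out, and the cause was not tested. CTCF itself was −2.34 to −2.14 with 1 array left out and past the threshold in every setting. With 2 arrays per group, differences under 0.44 on the log2 scale were not called.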
